A study of Mus musculus with 15 samples.

Results

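The genes of potassium channel subunits were described in 2 brain regions, the cerebellum (Ce) and the striatum (St). The mice came either from a line selected over generations for how much it ran on a wheel (Hi) or from its unselected counterpart (Co). Every gene symbol of the table that begins with Kcn was taken, which gave 95 of 26628 genes, and the choice used no measured value. They comprise the pore-forming subunits of the voltage-gated, calcium- and sodium-activated, inwardly rectifying and 2-pore-domain channels, their auxiliary subunits, the channel regulator gene Kcnrg and the antisense noncoding RNA Kcnq1ot1. RNA was sequenced from the entire Ce or St of male Hsd:ICR mice that the labels give as 6 weeks old, with 4 CeCo, 4 CeHi, 4 StCo and 3 StHi samples. A further StHi sample was removed by the authors after a principal component analysis. All groups share the Hsd:ICR background, the sex, the age and individual housing with a running wheel until dissection. Each line is represented by 1 of the replicate lines of the breeding experiment, so selection for running cannot be told apart from any other difference between these particular lines.

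Potassium channels set the resting potential of neurons and glia and shape how a neuron fires. The Shaker-type Kcna, Shab-type Kcnb, Shaw-type Kcnc and Shal-type Kcnd subunits form voltage-gated channels, Kcnq subunits carry the M-current that holds back repetitive firing, and Kcnj subunits form inward rectifiers that keep a resting cell near the potassium equilibrium. Projection neurons of the St are known for a deep resting potential held by inward rectifiers, and Purkinje cells and basket cells of the Ce for fast firing that relies on Shaw-type channels. Kcnip, Kcnab, Kcne and Kcnmb genes encode auxiliary subunits, which change the gating or the surface delivery of a pore.

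Values are fragment counts divided by a factor per sample, called normalized counts here. They are comparable between samples for 1 gene, and between genes only after division by exon length. The samples held 32909386 to 47485536 fragments, or 38499264 to 43669012 normalized counts, where 1 fragment is worth 0.841 to 1.30. Of the 7 measured markers of striatal projection neurons all 7 were higher in the St, and all 5 granule cell and all 5 Purkinje cell markers were higher in the Ce. CeHi replicate 3 stood apart in some transcripts that were higher in the St, but not in all. The neuropeptide gene Sst was at 613 normalized counts there and at 57.0 to 89.1 in the other 7 Ce samples, and Tac1 at 189 against 17.8 to 56.3. The 7 projection neuron markers together summed to 11314 in CeHi replicate 3, within the 8299 to 11648 of the other Ce samples. Choroid plexus transcripts varied most, with Ttr at 594 to 109529 across the Ce and at 492 to 14994 in the StHi samples.

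Of the 95 members, 80 reached the expression filter, which was 1 CPM (counts scaled to a library of 1000000) in no fewer than 3 samples, and were tested. The other 15 were Kcna7, Kcna10, Kcne1, Kcne3, Kcnj1, Kcnj15, Kcnk7, Kcnk15, Kcnk16, Kcnk18, Kcnmb1, Kcnmb3, Kcnn4, Kcnq1 and Kcnv2. In 6 of them no sample had more than 3 fragments, and Kcnk16 was at 0 in all 15 samples, which allows up to 3 fragments per sample. Kcnmb1, the BK channel subunit of smooth muscle, reached 23.5 normalized counts on average in the Ce and 37.3 in the St. Kcnv2 was at 15.1 to 21.9 in the Ce and 0 to 3.70 in the St, so that the ranges of the regions did not overlap. Among the tested members, 13 passed only through the St and 4 only through the Ce. In these the filter favoured a difference between the regions, though it did not require one. The 13 were Kcna5, Kcnf1, Kcng1, Kcng3, Kcnh4, Kcnh5, Kcnh6, Kcnh8, Kcnj4, Kcnj5, Kcnt2, Kcnu1 and Kcnv1.

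Per kilobase of exon, the 8 members with the highest level in the Ce included Kcna1, Kcnk1, Kcnc1, Kcnd2, Kcnj10, Kcng4 and Kcnip4. Kcna1, a Shaker-type subunit of axons and terminals, stood at 3578 ± 329 normalized counts per kilobase (SD, n = 8). Kcnk1, which encodes the weak inward rectifier TWIK of the 2-pore family, followed at 3548 ± 643, within the spread of Kcna1 and of the Shaw-type gene Kcnc1 at 3399 ± 349. In the St the 8 were Kcnj4, Kcnj10, Kcnab2, Kcna1, Kcnk1, Kcnab1, Kcnip3 and Kcnd2. Kcnj4, an inward rectifier of the classical strong type, led with 3267 ± 120.0 (SD, n = 7), and the glial inward rectifier Kcnj10 stood at 2896 ± 323, also among the 8 of the Ce with 3143 ± 325. The 4 names Kcna1, Kcnd2, Kcnj10 and Kcnk1 were in both lists.

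Summed over its members, the Shal-type family Kcnd reached 3810.0 ± 377 normalized counts per kilobase in the Ce and 1840.3 ± 118 in the St, 2.07 times more in the Ce. The 2-pore family Kcnk was 1.68 times higher in the Ce. The ether-a-go-go family Kcnh stood the other way, with 795 ± 34.4 in the Ce and 2408 ± 67.4 in the St, 3.03 times more in the St, and the beta subunits Kcnab were 1.96 times higher there. In these families no Ce sample overlapped with a St sample. The samples of the regions overlapped for the auxiliary Kcnip genes, which summed to 3338 ± 221 in the Ce against 3424 ± 246 in the St. They overlapped likewise for the Kcnmb genes, at 465 ± 35.1 against 417 ± 57.9.

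**Figure D1:**
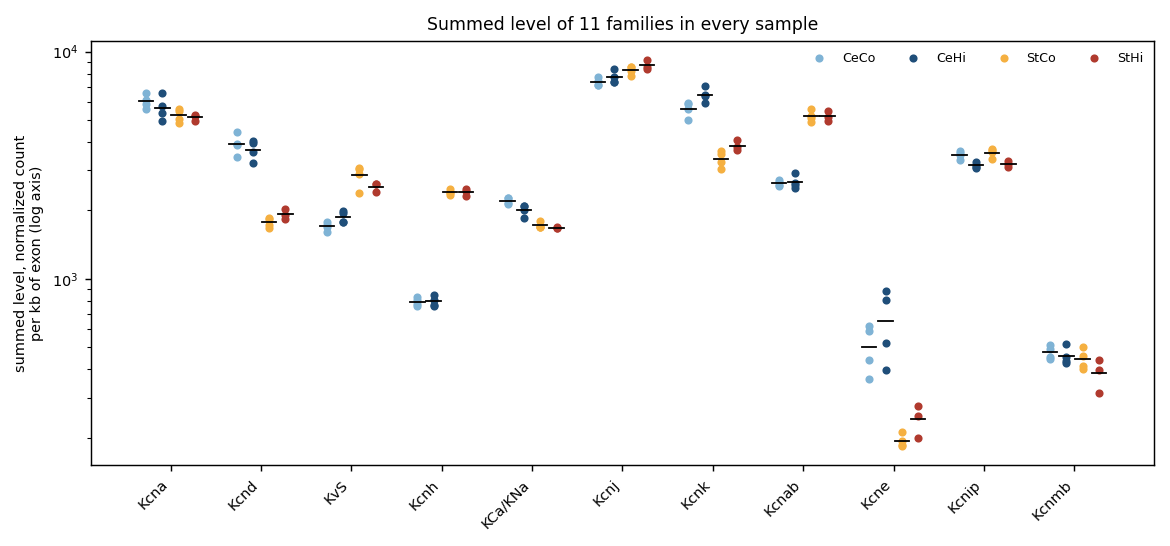
Summed level of 11 families of members in normalized counts per kilobase of exon, on a log axis, with 1 point per sample and a bar at the group mean. KvS stands for the modifier subunits Kcnf, Kcng, Kcns and Kcnv, and CeCo, CeHi, StCo and StHi are coloured separately. The Kcnd family is 2.07 times higher in the Ce and the Kcnh family 3.03 times higher in the St.

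The first comparison asked which members differed between the regions within each line. The members differed by region in both directions, and by a larger size than the typical gene. In both lines 42 were higher in the St and 24 in the Ce, counts not made over all genes. The 42 include members that passed the expression filter only through the St. In the Co line 69 of the 80 had a P-value under 0.05 in limma after adjustment for the false discovery rate (FDR), where 74.7% of all 15213 genes passed. Of these 43 were higher in the St, as were 36.9% of all genes, and 26 in the Ce, as were 37.8%. In the Hi line 71 passed, where 70.5% of all genes did, 42 of them higher in the St (35.1% of all genes) and 29 in the Ce (35.4%). In the mean of the lines 74 passed, where 80.2% of all genes did, 43 of them higher in the St (39.6%) and 31 in the Ce (40.6%). The size of the difference separated them more than the count of calls. Its median over the 80 tested members was 1.59 on the log2 scale, against 0.44 over all genes, and 38 members but 10.7% of all genes differed by more than 2. Among the 63 members above the expression filter in both regions the median size was 1.23, against 0.40 over the 13895 genes of that kind. In 59 members, and 55.2% of all genes, every St sample lay above or below every Ce sample. In bulk tissue, fewer cells of a type and less RNA per cell cannot be told apart.

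**Figure D2:**
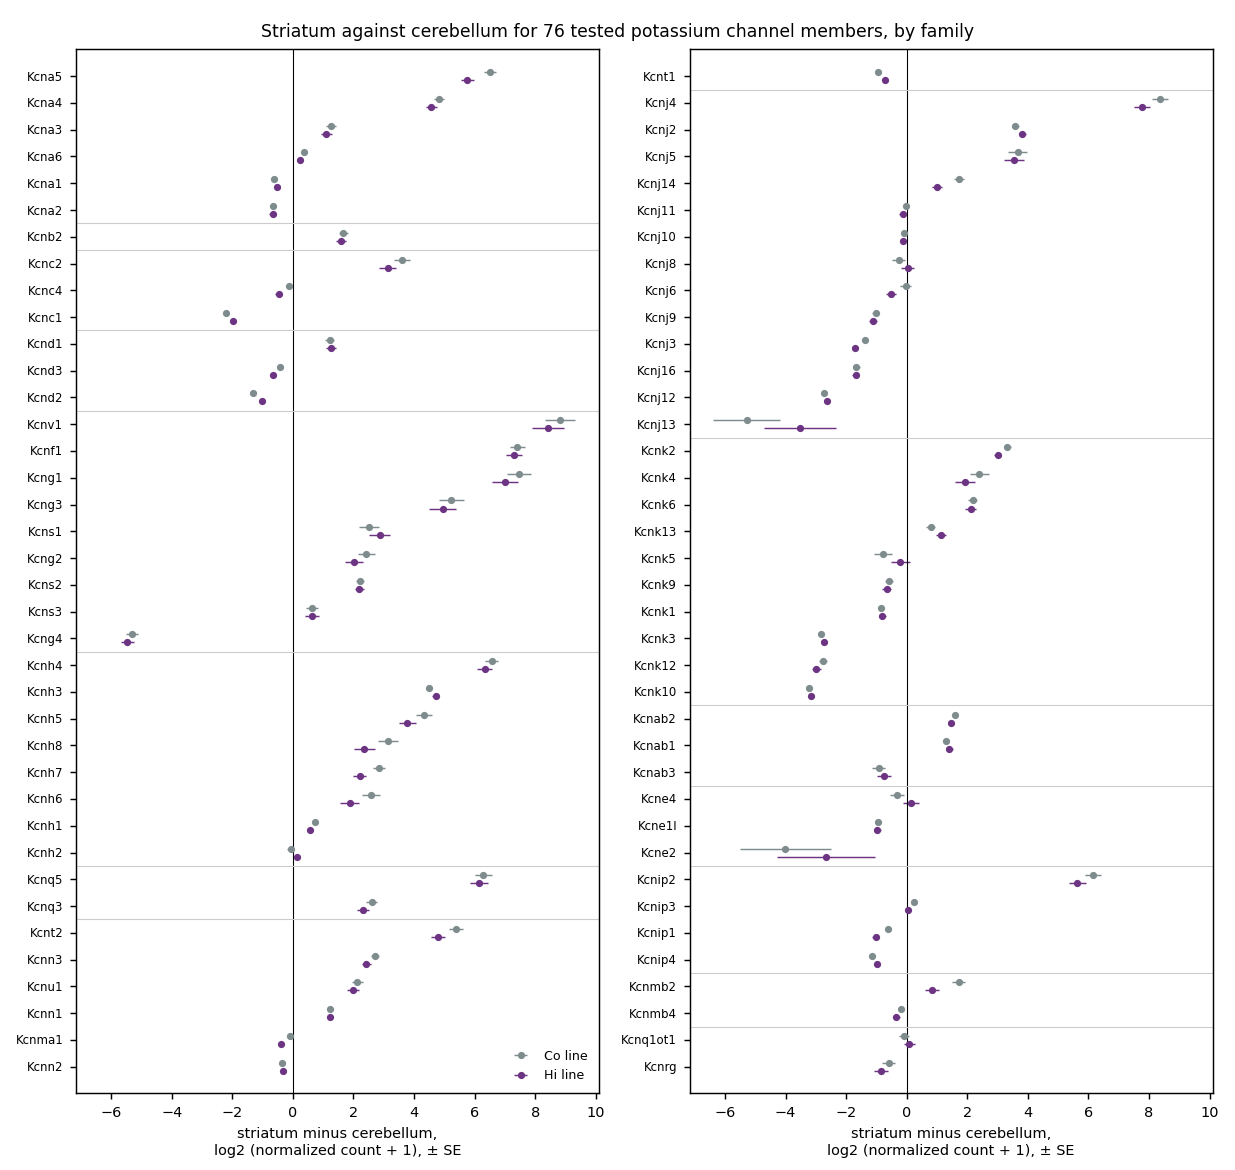
Difference of St minus Ce in log2 of the normalized count plus 1 for 76 of the 80 tested members, grouped by family, with the Co line in grey and the Hi line in purple and bars of 1 SE. Kcnv1 and Kcnj4 lie farthest to the St side and Kcng4, Kcnj13 and Kcne2 to the Ce side, the last pair with wide bars.

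The modifier subunits form no channel alone and join Shab-type subunits. Of these 8 of 9 tested were higher in the St in both lines and 1 in the Ce. Of all genes 36.9% (Co) and 35.1% (Hi) were higher in the St, and 37.8% (Co) and 35.4% (Hi) in the Ce. Kcnf1, Kcng1, Kcng3 and Kcnv1 passed the expression filter only through the St, which favoured that direction. Kcnv1 (chr15:45106284-45114920, reverse strand, on GRCm38) was at 11.2, 9.81, 11.1 and 6.23 normalized counts in CeCo, 11.8, 3.16, 5.56 and 34.9 in CeHi, 5182, 5197, 3612 and 4922 in StCo and 3642, 3346 and 3873 in StHi. All St samples lay above all Ce samples, the highest Ce sample was CeHi replicate 3, and the log2 difference was 8.82 (SE 0.49) in the Co and 8.42 (SE 0.53) in the Hi line. All region differences given are St minus Ce on the log2 scale, so a negative value is a higher level in the Ce. Kcnf1 differed by 7.41 (SE 0.24) in the Co and 7.29 (SE 0.26) in the Hi line, and Kcng1 by 7.47 (Co) and 7.00 (Hi). These Ce values rest on few fragments, at most 33 for Kcnv1 and 13 for Kcng1, so the size of the difference depends on the pseudocount. Kcng4 (chr8:119623854-119635680, reverse strand) was the exception, with 5609, 6303, 5996 and 6029 in CeCo, 6253, 6291, 7084 and 6737 in CeHi, 193, 129.6, 127 and 152 in StCo and 244, 125 and 103 in StHi. No St sample came near the Ce samples, and the log2 difference of St minus Ce was -5.32 (SE 0.20) in the Co and -5.47 (SE 0.22) in the Hi line.

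Among the pore-forming subunits that give a delayed rectifier, the Shab-type gene Kcnb2 was higher in the St, with 1.67 (Co) and 1.59 (Hi). Genes of the Shaw type stood on both sides. Kcnc1 differed by -2.22 (SE 0.09) in the Co and -1.98 (SE 0.10) in the Hi line, whereas Kcnc2, a subunit of fast-spiking interneurons, differed by 3.61 (SE 0.27) in the Co and 3.13 (SE 0.29) in the Hi line.

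Among the Shaker-type genes, Kcna5, Kcna4, Kcna3 and Kcna6 were higher in the St in both lines and Kcna1 and Kcna2 in the Ce. Kcna5 (chr6:126532551-126535412, reverse strand, a single exon) was at 9.32, 9.81, 17.1 and 10.7 in CeCo, 20.2, 25.3, 15.7 and 27.5 in CeHi, 964, 1029.6, 1398 and 1162 in StCo and 996, 1362 and 1369 in StHi. The regions did not overlap, with log2 differences of 6.51 (SE 0.20) in the Co and 5.76 (SE 0.22) in the Hi line. Its neighbours on the same strand, Kcna1 (chr6:126640397-126646384) and Kcna6 (chr6:126708329-126740674), differed by -0.61 (Co) and -0.52 (Hi) for Kcna1 and by 0.38 (Co) and 0.24 (Hi) for Kcna6, so 3 genes of 1 cluster ranged from a higher level in the Ce to one far higher in the St. The counts of Kcna6 are uncertain, since 38.8% of its 50-base windows also occur in another gene and Gm26673 overlaps it on the opposite strand. Kcna4, an A-type subunit, differed by 4.82 (Co) and 4.57 (Hi). The Shal-type gene Kcnd2, the main A-type subunit of dendrites, was higher in the Ce, with -1.32 (Co) and -1.03 (Hi). Of its calcium-binding partners, Kcnip2 was at 49.4, 42.8, 41.8 and 49.0 in CeCo, 51.3, 46.4, 60.2 and 142 in CeHi, 3651, 2923, 2919 and 3919.9 in StCo and 3131, 3504 and 3443 in StHi. That gave log2 differences of 6.16 (SE 0.26) in the Co and 5.63 (SE 0.28) in the Hi line, while Kcnip4, with -1.16 (Co) and -0.99 (Hi), and Kcnip1, with -0.63 (Co) and -1.03 (Hi), were higher in the Ce.

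The ether-a-go-go family held no member that was higher in the Ce in both lines. Of the 8 Kcnh genes 7 were higher in the St in both lines. Of all genes 36.9% were higher there in the Co line and 35.1% in the Hi line. Kcnh4, Kcnh5, Kcnh6 and Kcnh8 passed the expression filter only through the St, which favoured this direction. Kcnh4 was at 7.38 to 21.9 in the Ce and 1002 to 1405 in the St, with log2 differences of 6.56 (SE 0.22) in the Co and 6.33 (SE 0.24) in the Hi line, and Kcnh3, like it a gene of the Elk branch, differed by 4.5 (Co) and 4.71 (Hi). Kcnh1, the founding Eag gene, differed by 0.74 (Co) and 0.58 (Hi). Kcnh2, of the Erg branch, had differences of -0.07 (Co) and 0.12 (Hi) and passed in neither line. For the M-current, Kcnq5 was at 52.5 to 156 in the Ce and 5175 to 6296 in the St, with log2 differences of 6.29 (SE 0.28) in the Co and 6.15 (SE 0.30) in the Hi line. Kcnq3, of the same family, differed by 2.60 (Co) and 2.31 (Hi). Of the calcium- and sodium-activated channels, the sodium-activated pair stood on opposite sides, with Kcnt2 at 5.38 (Co) and 4.79 (Hi) and Kcnt1 at -0.95 (Co) and -0.71 (Hi). The small-conductance subunits Kcnn3, with 2.70 (Co) and 2.43 (Hi), and Kcnn1, with 1.24 (Co) and 1.23 (Hi), were higher in the St. Kcnn2, which Purkinje cells use, was higher in the Ce, with -0.35 (Co) and -0.31 (Hi).

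The classical inward rectifiers Kcnj2, Kcnj4 and Kcnj12 stood on both sides. Kcnj4 (chr15:79483714-79505241, reverse strand) was at 21.4, 23.2, 21.3 and 16.0 in CeCo, 23.5, 22.2, 28.7 and 67.6 in CeHi, 6642, 7301, 6740.4 and 7158 in StCo and 7178, 7247 and 6951 in StHi. The St samples lay within a narrow band and far above the Ce, of which CeHi replicate 3 was highest, and the log2 difference was 8.36 (SE 0.25) in the Co and 7.77 (SE 0.27) in the Hi line. Kcnj2 (chr11:111066164-111076821, forward strand) was at 172 to 262 in the Ce and 2424 to 3345 in the St, differing by 3.59 (SE 0.12) in the Co and 3.82 (SE 0.13) in the Hi line. Kcnj12 (chr11:61022564-61071131, forward strand) was at 4033, 3456, 2965 and 3618 in CeCo, 3344, 3703, 3028 and 3277 in CeHi, 522, 509, 534 and 531 in StCo and 579, 538 and 486 in StHi. It was lower in the St, with -2.73 (SE 0.08) in the Co and -2.64 (SE 0.09) in the Hi line. The 250 bases before the RefSeq transcription start of these 3 genes (GRCm38.p6, written 5′ to 3′ on the strand of the gene) are shown because genes of 1 subfamily stood on opposite sides. The RefSeq start of Kcnj12 lies inside the GENCODE gene. Capitals mark matches, on either strand, to the TATA box TATAAA, the GC box GGGCGG, the cyclic AMP response element TGACGTCA or the CCAAT box.
Kcnj4, chr15:79505242-79505491, reverse strand: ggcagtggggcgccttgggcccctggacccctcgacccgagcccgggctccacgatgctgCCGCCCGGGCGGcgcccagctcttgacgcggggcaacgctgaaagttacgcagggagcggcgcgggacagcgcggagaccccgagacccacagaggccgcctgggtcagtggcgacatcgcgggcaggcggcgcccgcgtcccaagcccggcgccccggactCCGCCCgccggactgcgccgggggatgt
Kcnj2, chr11:111065914-111066163, forward strand: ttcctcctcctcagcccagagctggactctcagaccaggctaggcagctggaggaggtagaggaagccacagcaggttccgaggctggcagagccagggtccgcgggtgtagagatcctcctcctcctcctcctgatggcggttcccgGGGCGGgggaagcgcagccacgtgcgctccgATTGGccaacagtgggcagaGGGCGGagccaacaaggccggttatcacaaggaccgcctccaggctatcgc
Kcnj12, chr11:61065554-61065803, forward strand: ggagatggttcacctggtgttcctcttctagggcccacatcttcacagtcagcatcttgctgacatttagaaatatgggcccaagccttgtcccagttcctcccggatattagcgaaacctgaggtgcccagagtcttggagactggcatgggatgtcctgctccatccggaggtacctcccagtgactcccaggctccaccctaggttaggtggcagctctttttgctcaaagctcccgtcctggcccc

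Kcnj4 held 3 matches to GGGCGG (the GC box), Kcnj2 held 2 and 1 match to CCAAT, and Kcnj12 held none of the 4 motifs. RefSeq listed 95 such stretches for 70 member genes. GGGCGG stood in 44.2% of them and in 32.7% of all 32851 stretches, TATAAA in 3.16% and 12.4%, CCAAT in 29.5% and 33.8%, and TGACGTCA in 0 of the 95 and in 1.55% of all. A match describes letters only.

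Kcnj16, the glial partner of Kcnj10, lies next to Kcnj2 at chr11:110968033-111027968 on the same strand and stood on the other side, at 533 to 804 in the Ce and 145 to 248 in the St, a difference of -1.66 (SE 0.11) in the Co and -1.68 (SE 0.12) in the Hi line. Kcnj10 itself passed in neither line, with -0.09 (Co) and -0.11 (Hi), but in both under quantile normalization and in the Hi line with sample quality weights. The G protein-gated subunits Kcnj3, with -1.39 (Co) and -1.71 (Hi), and Kcnj9, with -1.03 (Co) and -1.10 (Hi), were higher in the Ce. Of the 50-base windows of Kcnj3, 29.3% also occur in another gene. Kcnj5, of the same group, was higher in the St, with 3.66 (Co) and 3.54 (Hi). The ATP-sensitive subunits Kcnj11 and Kcnj8 passed in neither line in limma on all 15 samples. In the Hi line Kcnj11 was called in the 3 fits on 10 samples (edgeR, DESeq2 and limma), and in the Co line Kcnj8 under quantile normalization. Among the 2-pore genes, the acid-sensitive Kcnk3 was at 4549.8 to 5569 in the Ce and 617 to 861 in the St, and differed by -2.82 (SE 0.09) in the Co and -2.73 (SE 0.10) in the Hi line. Kcnk10 and Kcnk2, both of the mechanosensitive TREK branch, stood on opposite sides, with -3.21 (Co) and -3.16 (Hi) for Kcnk10 and 3.32 (Co) and 3.0 (Hi) for Kcnk2. Kcnk12 was higher in the Ce, with -2.77 (Co) and -2.98 (Hi). Of the beta subunits of Shaker-type channels, Kcnab1, with 1.30 (Co) and 1.41 (Hi), and Kcnab2, with 1.59 (Co) and 1.47 (Hi), were higher in the St, and Kcnab3, with -0.92 (Co) and -0.74 (Hi), in the Ce.

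A pair of members, picked after their values were seen, varied widely among the samples of the Ce. Kcne2, an auxiliary subunit of the choroid plexus epithelium, was at 369, 9.81, 532 and 137 in CeCo, 13.5, 867, 852 and 91.9 in CeHi, 11.1, 5.93, 5.25 and 7.31 in StCo and 9.08, 15.5 and 127 in StHi. Kcnj13, an inward rectifier of the same epithelium, was at 453, 48.1, 755 and 297 in CeCo, 75.7, 620.3, 697 and 126 in CeHi, 11.1, 8.90, 8.40 and 0.914 in StCo and 10.4, 8.74 and 97.4 in StHi. In both genes CeCo replicate 1 and CeHi replicate 0 were lowest in the Ce, and StHi replicate 2 was highest in the St. The 6 choroid plexus markers summed to 1742 to 116124 in CeCo, 1391 to 112397 in CeHi, 1289 to 1845 in StCo and 1789 to 17988 in StHi, and none was at 0 in any group. Kcne2 differed between regions by -4.01 (SE 1.5, FDR-adjusted P-value 0.029) in the Co and -2.67 (SE 1.62, FDR-adjusted P-value 0.16) in the Hi line, and by -3.78 (FDR-adjusted P-value 0.082) in the Hi line without StHi replicate 2. Kcnj13 differed by -5.28 (Co) and -3.52 (Hi), and 42.1% of its 50-base windows also occur in another gene, while Gigyf2 overlaps it on the opposite strand. The part of choroid plexus content in these differences was not tested. Kcne1l, the X-linked member of the Kcne family, was at 452 to 692 in the Ce and 249 to 331 in the St, with a difference of -0.95 (Co) and -0.97 (Hi).

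**Figure D3:**
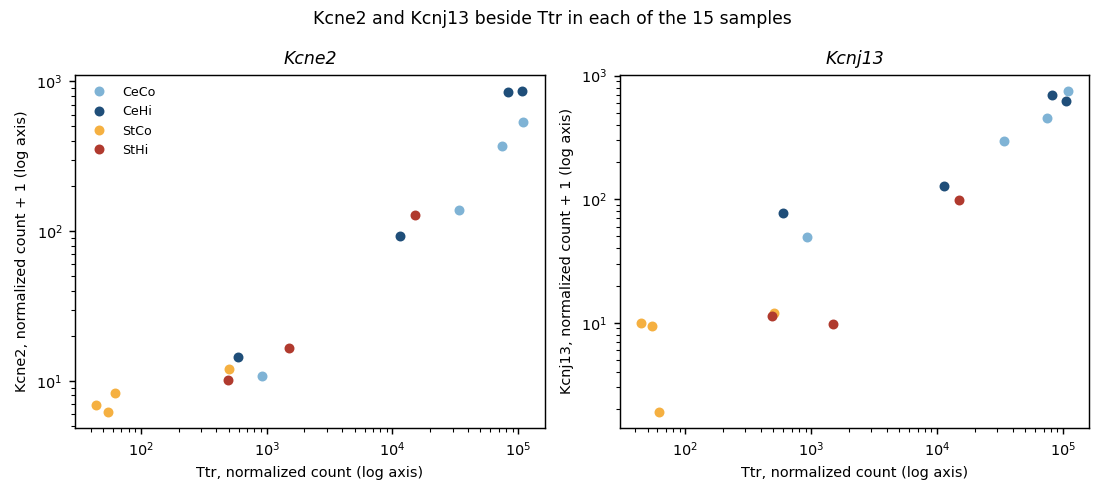
Kcne2 and Kcnj13 (normalized count plus 1) against Ttr (normalized count) in the 15 samples, both axes logarithmic, coloured by group. The 6 Ce samples with the most Ttr and StHi replicate 2 also hold the highest values of Kcne2 and Kcnj13.

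The second comparison asked which members differed between the Hi and Co lines in the Ce. In the Ce 7 of the 80 tested members passed, where 5.94% of all genes did. Of these 5 were higher in CeHi, as were 2.94% of all genes, and 2 lower, as were 2.99%. Kcnmb2, Kcna5, Kcnj14 and Kcnk1 were among the higher, and the lower ones were Kcnt1 and Kcnip4. The median line difference was 0.05 over the tested members and 0 over all genes, with a median size of 0.14 against 0.10. In 8 members the CeHi and CeCo samples did not overlap, against 13.3% of all genes.

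Kcnmb2, an auxiliary subunit that inactivates BK channels (chr3:31902507-32200180, forward strand), was at 34.5, 23.2, 35.0 and 19.6 normalized counts in CeCo and 53.0, 52.7, 50.02 and 87.7 in CeHi. All CeHi samples lay above all CeCo samples, CeHi replicate 3 highest, and the log2 difference was 1.09 (SE 0.22, FDR-adjusted P-value 0.0067). Without that sample it was 0.90 (FDR-adjusted P-value 0.022). The St samples stood at 81.5, 106, 90.3 and 90.5 in StCo and 131, 82.5 and 109 in StHi, groups that overlapped, with a difference of 0.20 (SE 0.24, FDR-adjusted P-value 0.81). Kcna5 was the next largest, 0.87 (SE 0.20, FDR-adjusted P-value 0.016), with the samples given above. It rests on 10 to 26 fragments per Ce sample, under 1 CPM in all 8, so that it was tested in the Ce only because the St samples passed the filter. The CeCo and CeHi samples overlapped in 1 value, CeCo replicate 2 standing above CeHi replicate 2, and without CeHi replicate 3 the difference was 0.76 and the FDR-adjusted P-value 0.05 after rounding, just under the threshold. Kcnj14, a further classical inward rectifier, was at 22.4, 32.1, 30.7 and 32.1 in CeCo and 48.8, 41.1, 50.9 and 46.5 in CeHi. These did not overlap, with a difference of 0.66 (SE 0.16, FDR-adjusted P-value 0.023), whereas the St groups, at 85.1 to 116 in StCo and 83.1 to 110.3 in StHi, did. Its counts are uncertain, since 30.8% of its 50-base windows also occur in another gene. Kcnmb2 passed in 27 of 29 alternatives and in all that left out 1 sample. Kcna5 passed in 23 of 28 alternatives and missed the threshold without CeCo replicate 0 or 1, with FDR-adjusted P-values of 0.052 to 0.054. Kcnj14 passed in 22 of 29 alternatives and missed the threshold without CeCo replicate 0 or CeHi replicate 0 or 2, with FDR-adjusted P-values of 0.055 to 0.07.

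Kcnmb2, Kcna5 and Kcnj14 were also among the members with higher levels in the St. The 7 measured striatal projection neuron markers, Penk, Ppp1r1b and Rgs9 among them, summed to 8299 to 9754 normalized counts in CeCo and 10506 to 11648 in CeHi, without overlap, and 0 of 7 passed in limma in the Ce. None of the 7 was at 0 in either group. Their part in the difference was not tested. In the mean of the lines 18 members were higher in the St by more than 3 on the log2 scale. In 12 of these 18 CeHi replicate 3, the sample with the highest Sst, was the highest of the 8 Ce samples. The same was not counted over all genes with such a difference.

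Kcnk1 (chr8:125995170-126030685, forward strand, overlapped by Gm45875 on the opposite strand) was the member with a line call in each region. It was at 7256, 6734, 5864 and 7104 in CeCo, 9056, 10238, 8339 and 8851 in CeHi, 4211, 3559, 3224 and 3959 in StCo and 5739.7, 4861 and 5017 in StHi. The Hi samples lay above the Co samples in both regions without overlap, by 0.43 (SE 0.09, FDR-adjusted P-value 0.0069) in the Ce, 1.35-fold, and by 0.48 (SE 0.10, FDR-adjusted P-value 0.011) in the St, 1.39-fold. The mean over the regions was 0.45 (SE 0.07, FDR-adjusted P-value 0.00025). The call in the Ce held in all 29 alternatives run for it and the call in the St in 25 of 29, being lost in the 3 fits on 10 samples and without StHi replicate 0, with an FDR-adjusted P-value of 0.056. Its 250 bases before the RefSeq start (GRCm38.p6), shown because Kcnk1 was called in both regions, held none of the 4 motifs.
Kcnk1, chr8:125994852-125995101, forward strand: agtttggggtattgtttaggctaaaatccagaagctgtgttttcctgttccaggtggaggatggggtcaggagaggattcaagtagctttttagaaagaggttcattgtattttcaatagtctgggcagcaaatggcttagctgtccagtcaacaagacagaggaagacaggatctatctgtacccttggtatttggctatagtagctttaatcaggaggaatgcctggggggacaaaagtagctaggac

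Kcnt1 and Kcnip4 were the members that were lower in CeHi. Kcnt1, a sodium-activated channel, was at 15001, 15695, 14944 and 15736 in CeCo and 13623, 12302, 13984 and 11649 in CeHi, without overlap, a difference of -0.26 (SE 0.06, FDR-adjusted P-value 0.018). In the St the groups overlapped, with 7239 to 8560.2 in StCo and 7649 to 7940.2 in StHi. Kcnip4, a partner of Shal-type channels, was at 6413, 6721, 6647 and 6357 in CeCo and 5902, 5370.5, 5207 and 5117 in CeHi, again without overlap and with a difference of -0.28 (SE 0.07, FDR-adjusted P-value 0.026). Kcnt1 passed in 23 of 29 alternatives and missed the threshold without CeCo replicate 1 or 3 or CeHi replicate 1 or 3, with FDR-adjusted P-values of 0.051 to 0.055. Kcnip4 passed in 19 of 29 alternatives and missed the threshold without CeCo replicate 0, 1, 2 or 3 or CeHi replicate 1, 2 or 3, with FDR-adjusted P-values of 0.053 to 0.08. Next outside the threshold were Kcnj10, 0.23 (SE 0.07, FDR-adjusted P-value 0.058), and Kcnd3, a Shal-type subunit, 0.24 (SE 0.08, FDR-adjusted P-value 0.071). Both passed with the replicate block, at FDR-adjusted P-values of 0.01 for Kcnj10 and 0.0072 for Kcnd3, and with sample quality weights, at 0.043 and 0.023. Kcnj10 also passed under quantile normalization (0.027) and in DESeq2 on 10 samples (0.016).

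The third comparison was of the lines in the St, where 2 of the 80 tested members passed and 2.66% of all genes did. They were Kcnk1, higher in StHi as were 1.49% of all genes, and Kcnip3, lower as were 1.17%. Kcnip3, a calcium-binding partner of Shal-type channels that also acts as a transcriptional repressor, was at 5798, 5941, 5165 and 5984 in StCo and 4487, 4763 and 4577 in StHi. The groups did not overlap, with a difference of -0.32 (SE 0.07, FDR-adjusted P-value 0.025). The Ce samples stood at 5132, 4974, 4198 and 5323 in CeCo and 4442, 4783, 4371 and 4462 in CeHi, overlapping groups with a difference of -0.12 (SE 0.07, FDR-adjusted P-value 0.34). The 5 markers of excitatory neurons of the cortex and hippocampus summed to 32951 to 49009 in StCo and 17310.3 to 37323 in StHi, which overlapped, none of the 5 was at 0 in a St sample, and 0 of 5 passed. Their part in the difference of Kcnip3 was not tested. Kcnip3 passed in 19 of 29 alternatives and missed the threshold without StCo replicate 0, 1 or 3 or StHi replicate 0, 1 or 2, with FDR-adjusted P-values of 0.054 to 0.091. DESeq2 on 10 samples, 1 of them StHi, called neither Kcnk1 nor Kcnip3 in the St but 3 other members as lower in StHi. These were Kcnj11, -0.60 (FDR-adjusted P-value 0.0034), Kcnj3, -0.51 (FDR-adjusted P-value 0.018), and Kcnmb4, -0.48 (FDR-adjusted P-value 0.04), and limma on the same 10 samples called none of them. Of the 50-base windows of Kcnmb4, 30.7% also occur in another gene. Kcnn2, 0.25 (SE 0.08, FDR-adjusted P-value 0.13), stood next outside the threshold. In 7 members the StHi and StCo samples did not overlap, against 13.1% of all genes. The median line difference was -0.05 over the tested members and 0 over all genes, with a median size of 0.15 against 0.08. Of the members 32 were higher and 48 lower in StHi, a split not counted over all genes.

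**Figure D4:**
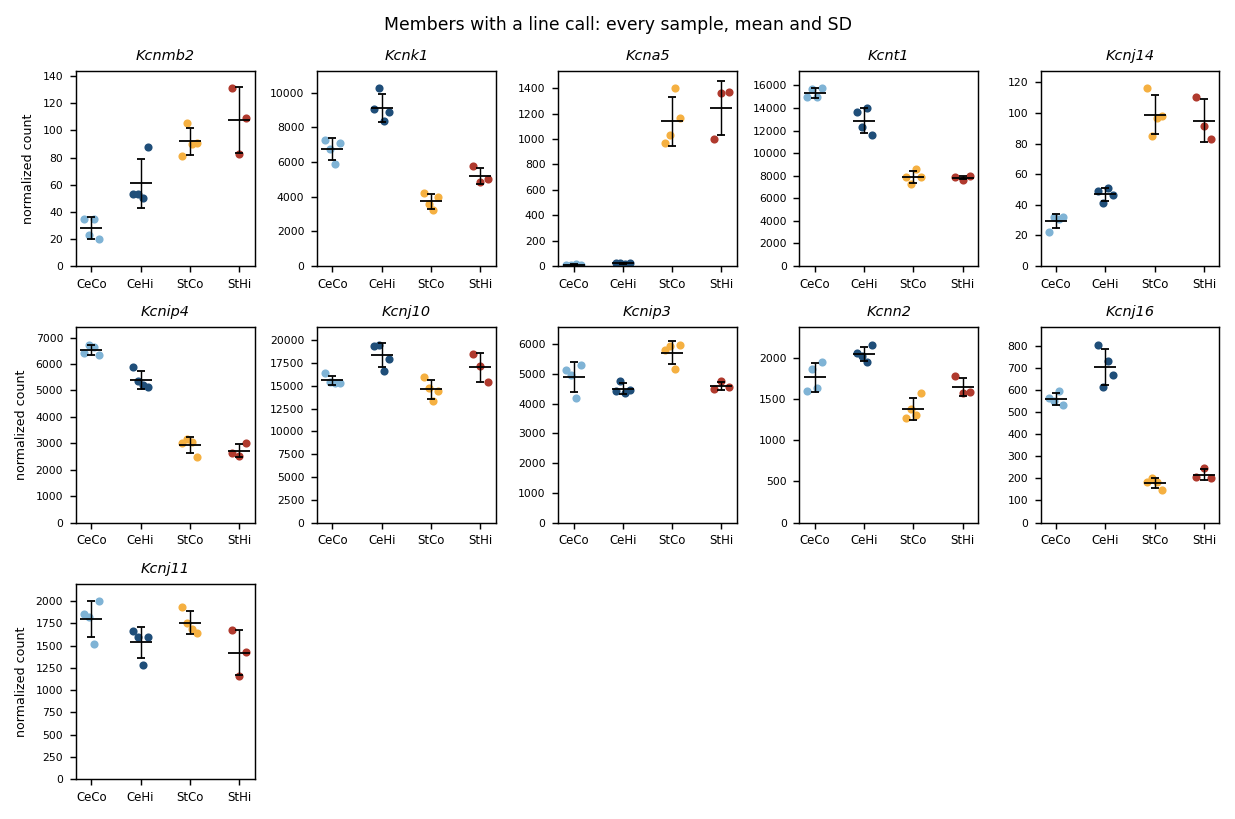
Normalized counts of 11 of the 12 members with a line call in the Ce, in the St or in the mean of the regions, with 1 point per sample and a bar at the mean with its SD for CeCo, CeHi, StCo and StHi. The axes start at 0, and for Kcnk1 the Hi samples lie above the Co samples in both regions.

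In the mean of the line differences over both regions 9 members passed, against 8.48% of all genes. In the Hi line 6 were higher (4.34% of all genes) and 3 lower (4.14%). Each had the same sign in both regions, which a choice by the mean favours in advance. This mean counts Ce and St samples as independent, although the sources do not say whether both regions came from the same mice. Beside Kcnk1, Kcnmb2 and Kcna5, the higher ones were the glial rectifiers Kcnj10 and Kcnj16 and the small-conductance channel gene Kcnn2. Kcnj10 (chr1:172341210-172374085, forward strand) was at 16368, 15452, 15319.9 and 15272 in CeCo, 19381, 19503, 16661 and 18007 in CeHi, 15961, 14749, 13377 and 14454 in StCo and 18558, 17144 and 15377 in StHi. The Hi and Co samples were apart in the Ce and overlapped in the St, and the mean difference was 0.22 (SE 0.05, FDR-adjusted P-value 0.01). Kcnj16 was at 563, 552, 596 and 533 in CeCo, 804, 614, 729 and 666 in CeHi, 181, 201, 184 and 145 in StCo and 205, 248 and 199 in StHi, again apart in the Ce and overlapping in the St. Its mean difference was 0.30 (SE 0.08, FDR-adjusted P-value 0.027). Kcnn2 was at 1596, 1865, 1631 and 1953 in CeCo, 2059, 2028, 1947 and 2156 in CeHi, 1270.1, 1376, 1310.5 and 1567 in StCo and 1774, 1578 and 1580.4 in StHi. Here the lines overlapped in the Ce and were apart in the St, with a mean difference of 0.23 (SE 0.06, FDR-adjusted P-value 0.015).

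Kcnj10 is known from astrocytes and oligodendrocytes. The 5 oligodendrocyte markers summed to 165952 to 202486 in CeCo and 190781 to 247091 in CeHi, overlapping, and to 182490.0 to 266572 in StCo and 279611 to 319941 in StHi, without overlap. In the mean line difference 2 of the 5, Mbp among them, passed as higher in the Hi line, and of the 5 astrocyte markers 1, Gfap. No marker of either list was at 0. The part of glial content in the differences of Kcnj10, Kcnj16 and Kcnk1 was not tested.

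The lower members in the mean were Kcnip3, -0.22 (SE 0.05, FDR-adjusted P-value 0.01), Kcnip4, -0.20 (SE 0.05, FDR-adjusted P-value 0.026), and Kcnj11, -0.28 (SE 0.08, FDR-adjusted P-value 0.043). Kcnj11, the pore of the ATP-sensitive channel, was at 1851, 1815, 1515 and 1995 in CeCo, 1663, 1600.3, 1283 and 1599 in CeHi, 1934, 1755, 1691 and 1643 in StCo and 1672, 1160.5 and 1431 in StHi, so that the lines overlapped in each region. For this mean Kcnj11 passed in 13 of 28 alternatives and missed the threshold without CeCo replicate 0, 1 or 3 or CeHi replicate 1, 2 or 3 or StCo replicate 0, 1 or 2 or StHi replicate 1 or 2, with FDR-adjusted P-values of 0.055 to 0.11. Kcna5 passed in 10 of 28, and Kcnj10, Kcnj16, Kcnn2, Kcnip3, Kcnip4 and Kcnmb2 in 26, 24, 25, 25, 17 and 23 of 28, in that order.

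**Figure D5:**
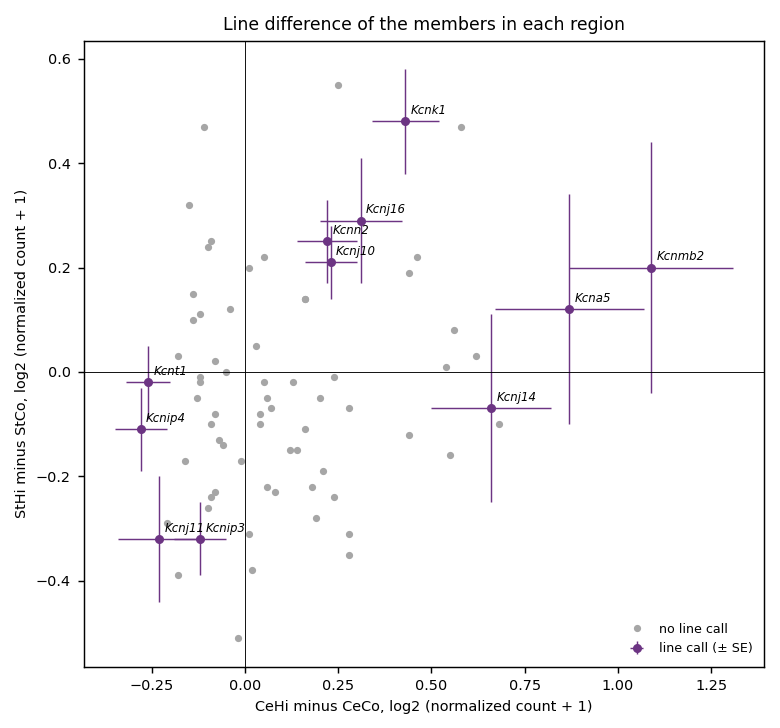
Line difference of tested members in the Ce (horizontal) against the St (vertical), both in log2 of the normalized count plus 1, with 11 of the 12 members with a line call in purple with bars of 1 SE and the others in grey. Kcne2 and Kcnj13 are left out because of their spread between samples, and Kcnk1 is high on both axes whereas Kcnmb2, Kcna5 and Kcnj14 lie to the right with values nearer 0 on the vertical axis.

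The fourth comparison tested whether the line difference itself differed between the regions. None of the 80 tested members passed in limma, where 0.532% of all genes did. An unadjusted P-value under 0.05 was reached by 10 members and by 1454 of all 15213 genes. On 10 samples edgeR called 0 and DESeq2 1, Kcnj3. The smallest FDR-adjusted P-value was 0.26, for Kcnj14, with a line difference of 0.66 for the Ce and -0.07 for the St, an interaction of -0.73 (SE 0.24). The interaction was -0.89 (SE 0.33, FDR-adjusted P-value 0.34) for Kcnmb2 and -0.75 (SE 0.30, FDR-adjusted P-value 0.39) for Kcna5. Calls in the Ce and not in the St are therefore not shown to differ between the regions. Leaving out CeCo replicate 1 gave 1 call.

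A list of 24 partner genes without a Kcn symbol was examined beside the members. It holds accessory proteins of Shal-type, BK, ATP-sensitive and Shaker-type channels, scaffolds, the related HCN channels, G protein subunits and others, and 23 were tested. In limma 0 of 23 passed in the line comparison of the Ce, of the St or in their mean. Of all genes 5.94%, 2.66% and 8.48% did, in that order. At an unadjusted P-value under 0.05 there were 2 in the Ce, 3 in the St and 0 in the mean. Among all 15213 genes there were 2990, 2141 and 3391. On 10 samples edgeR and DESeq2 each called 0 for the Ce, 0 for the mean and 1, Gng2, for the St. By region 13 of the 23 were higher in the St (39.6% of all genes) and 7 in the Ce (40.6%) in the mean of the lines. Abcc8, the sulfonylurea receptor that joins Kcnj11, had 2714 to 3803 normalized counts in the Ce and 605 to 922 in the St, whereas Kcnj11 had 1283 to 1995 and 1160.5 to 1934. Lrrc38, a BK accessory subunit, was at 381 to 473 in the Ce and 52.4 to 84.3 in the St, and Lrrc55, of the same kind, at 86.5 to 175 and 720.3 to 1071. Dpp6, which joins Shal-type channels, differed by -0.03 on the log2 scale in the mean of the lines.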

How the data were processed

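RNA from the cerebellum and striatum was sequenced on an Illumina HiSeq instrument in paired-end reads. The authors aligned the reads with TopHat2 to GRCm38 (mm10) and made the values with Cuffnorm 2.2.1. The deposited values are a signal: fragment counts divided by a factor per sample, not by gene length. Between 99.47% and 99.66% of values under 100 steps were whole fragments within 0.05. Columns of the authors' own comparisons were not used. Strandedness of the counting is not given in the sources used here, so reads from a gene and an antisense partner cannot be told apart. The sources do not say whether both regions came from the same mice. The main fit counts all 15 samples as independent, and P-values measure only the spread between these samples.

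Values were scaled by TMM and taken as log2(value + 1), so a difference understates the change of low genes. Genes with at least 1 CPM in 3 or more samples entered limma (version 3.58.1, under R version 4.3.3), as 4 groups over all 15 samples with trended and robust moderation, and P-values were adjusted by Benjamini-Hochberg over all 15213 genes tested. A separate check, which starts from the smallest value of each sample, accepted whole fragments in 10 samples, 1 of them StHi. The samples it left out held 99.47% to 99.53% whole low values, close to the 99.48% to 99.66% of the accepted ones. The limit to 10 samples is thus one of this check. The count models of edgeR 4.0.16 and DESeq2 1.42.0, with limma on the same samples, were therefore alternatives on those 10, in which the single StHi sample is assumed to vary like the other groups. The other alternatives were pseudocounts, filters, scalings, moderation, sample weights, the replicate block and leaving out each replicate. Steps were tested on simulated data.

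The members and gene lists were chosen with earlier results of these data known. Named were the members with a line call, the 2 next outside in each region, the 8 most different by region in each direction, the 8 highest per kilobase in each region and the highest of each family. Further members are given with their families. Positions and exon lengths are from GENCODE M21 and sequences from RefSeq (GRCm38.p6). Deviations from the group means correlated at 0.171 to 0.278 between CeCo and StCo samples of the same number. Among the StCo samples, each CeCo sample correlated best with its own number. Between CeHi and StHi the values were -0.0751 to 0.0513. Same-numbered samples of different lines, which are different mice, ranged from -0.221 to 0.183 in the Ce and from -0.0432 to 0.196 in the St. The Co values alone therefore do not show that a number marks 1 mouse, and what the numbers mark was not tested. Results of some members and of 1 marker are not reported here, although the counts over all members include them.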

Additional observations from a re-analysis of the deposited data

Results flagged for a closer look

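In groups of 4 samples, 10 of 108 sample sets held a highest or lowest sample whose gap to the nearest other exceeded Dixon's 95% critical value, and chance gives about 1 in 20. The sets were the named members in the CeCo, CeHi and StCo groups, and values are normalized counts. In 5 of the 10 the sample was CeHi replicate 3, the one with the highest Sst. These were Kcnmb2, with CeHi replicate 3 at 87.7 against 50.02 to 53.0 in the other CeHi samples, Kcnj4, with CeHi replicate 3 at 67.6 against 22.2 to 28.7, and Kcnf1, with CeHi replicate 3 at 47.6 against 23.2 to 26.4. Kcnq5 had CeHi replicate 3 at 156 against 57.2 to 66.5, and Kcnip2 had CeHi replicate 3 at 142 against 46.4 to 60.2.

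The other 5 lay in 4 samples. Kcnj14 had CeCo replicate 0 at 22.4 against 30.7 to 32.1 in the other CeCo samples, and Kcnj10 had CeCo replicate 0 at 16368 against 15272 to 15452. Kcnd3 had CeCo replicate 1 at 5671 against 4611 to 4724, Kcnj11 had CeHi replicate 2 at 1283 against 1599 to 1663 in the other CeHi samples, and Kcnk10 had StCo replicate 1 at 119.7 against 99.8 to 102 in the other StCo samples. No member had a line difference that differed between the regions past the threshold in limma.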

How the results depend on the processing

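Over 30 alternatives, 1588 values of 54 single-member results gave 0 reversals, 122 lost calls and 15 gained ones. The count of members called in the Ce line comparison, 7 in the analysis as reported, was 1 with edgeR and 5 with DESeq2 on 10 samples, and 1 with limma on those samples, an alternative chosen after seeing the data. These fits hold fewer samples. For the St line comparison, with 2, the count was 1 with moderation without trend and not robust, 0 with edgeR and 0 with limma on the 10 samples, and 3 with DESeq2, none of them among the 2. For the mean line difference, with 9, it was 2 with edgeR, 4 with DESeq2 and 2 with limma on the 10 samples. In the interaction, with 0, DESeq2 gave 1. Of the partner genes 1 and not 0 was called in the St line comparison and in the interaction, namely Gng2 with edgeR, DESeq2 and limma on the 10 samples, and Cntn2 with sample quality weights in both and with quantile normalization in the interaction. The cause was not tested. Leaving out 1 sample at a time gave 3 to 8 members in the Ce, lowest without CeCo replicate 0, and 4 without CeCo replicate 3. It gave 1 to 2 in the St, with 1 without StCo replicate 0 or 1 or any StHi sample, 5 to 8 in the mean, lowest without StHi replicate 1, and 0 to 1 in the interaction, where 1 came without CeCo replicate 1. Partner genes numbered 0 to 1 in the mean, with 1 without StHi replicate 0. The replicate block gave 10 members in the Ce, adding Kcnd3, Kcnj10 and Kcnn2, 3 in the St, adding Kcnn2, 10 in the mean, adding Kcnj8, and 0 in the interaction, and 69 in the region comparison of the Co and 71 in that of the Hi line. With the replicate number as a block within the line, the region counts were 69 and 70. The smallest group, StHi with 3 samples, and low counts in the Ce for members of the St limit what could be detected.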
